A study of Homo sapiens with 5 samples.

Results

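Histone methylation is set by writers, the lysine and arginine methyltransferases, and removed by erasers, the lysine demethylases, and the genes for both were examined here for called transcription start sites in HUDEP-2 cells. The genes were those annotated as protein-coding whose symbols begin with KDM, KMT2, SETD, EHMT, PRMT, EZH, NSD or SUV39H. Of 56 such genes, 55 lay on chromosomes 1 to 22 and X, out of 19974 protein-coding genes there, and the 1 on chromosome Y was not analysed here. They were grouped by gene family into 33 writers, of which 25 belong to lysine and 8 to arginine methyltransferase families, and 19 erasers. The lysine families include SETD3 and SETD6, whose best-known targets are not histones, and KMT2E, without clear activity of its own. The remaining 3 matched by name only or as a readthrough: NSDHL encodes an enzyme of cholesterol synthesis, EZHIP encodes an inhibitor of EZH2, and SETDB2-PHF11 is a readthrough gene that shares its start with SETDB2.

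Nascent RNA was read by PRO-seq, a run-on assay in nuclei: polymerases already engaged on DNA extend their transcripts with biotin-tagged CTP and UTP, and the tagged RNA is isolated on streptavidin beads for sequencing. HUDEP-2 is an immortalised human erythroid progenitor line. The series holds 5 libraries: 2 of wild-type cells and 3 of clones, each grown from a single edited cell. The editing guide was sg1617, directed against the erythroid enhancer of BCL11A, and the clones carry a 1 bp insertion, a 13 bp deletion and a 15 bp deletion, with each clone represented by 1 library. The values come from 2 deposited lists of start-site calls, 1 per strand, that have no column per library, so edited and wild-type cells could not be compared. Their headers name 1 alignment that matches no sample title, so which of the libraries gave the calls is unknown.

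Methylation of H3K4 is found at active promoters and enhancers, H3K36 methylation along transcribed genes, and H3K9 and H3K27 methylation in repressed chromatin. In erythroid cells the writers EHMT1, EHMT2 and PRMT5 and the eraser KDM1A are known as repressors of fetal globin genes. Writers use S-adenosylmethionine as the methyl donor. KDM1A and KDM1B are flavin-dependent amine oxidases, whereas the other KDM enzymes carry a JmjC domain that needs iron and 2-oxoglutarate.

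The lists held 14124 forward and 14159 reverse calls, and each call was a position of 1 base with a score of 0, so no call can be weighed against another and the reads behind them are unknown. Of 15 erythroid marker genes, 14 carried a promoter call, beside 41.6% of all protein-coding genes, and HEMGN was called only at an inner listed start. Of 24 markers of megakaryocytes, lymphoid and myeloid cells and other tissues, 0 carried a promoter call. Any call in the gene or within 500 bp was present in 3 of these 24. The markers were listed with earlier results of these data known, so the counts are no independent check of the cell type. A promoter call is a call on the gene's own strand within 500 bp of its outer annotated start. Intervals are Wilson 95% intervals for a share and Newcombe 95% intervals for a difference. They cover counting over genes, which are not replicates, and no error between libraries.

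The sequences at the calls are shown for the genes that best show where the call fell. Each line gives 19 bases before the call, the called base and 10 bases after it, 5′ to 3′ on the gene's strand, and the capitals mark the base before the call, the called base and the base after it. In the 4 genes KMT2E, PRMT3, KDM3A and KDM5B the call lay 1 base upstream of a RefSeq transcript start, and in KDM4A, KDM6A, KDM5C and PRMT2 it lay on the start itself. In the last 4 genes, KMT2B, PRMT1, PRMT5 and KDM2A, the letters ATGGCGG began 4 bases after the call.
KMT2E: gccgccgccgccattttcCCAgagcgagag
PRMT3: ccaacccggtccccgcccCCAgacacgccg
KDM3A: cttgtgagagctcttgaaCCAagtcagcgc
KDM5B: ccaaggtgctgccgttgcCCGtacaactcg
KDM4A: ctgcgcagatgccgacttTAGaggaggcgg
KDM6A: ttcgctgtgtgacacaatTACaacaacttt
KDM5C: tgtggggaggggagacgcTGAcaaaccaag
PRMT2: cactgcgcttgcgcgggtTGAgggcggtgg
KMT2B: ccggcccctctcacggtgCCAagatggcgg
PRMT1: aggaggagtaggtgcgggTGAagatggcgg
PRMT5: gcgtggacagcgcgaggaGAAagatggcgg
KDM2A: tgtgagagtctgacgggtTCAaaatggcgg

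These sequences are RefSeq reference sequence of GRCh38.p14 and hg38. KMT2E lies at chr7:105014185-105014214 on the forward strand, PRMT3 at chr11:20387696-20387725 forward, KDM3A at chr2:86441351-86441380 forward and KDM5B at chr1:202808412-202808441 reverse. KDM4A lies at chr1:43650130-43650159 forward, KDM6A at chrX:44873169-44873198 forward, KDM5C at chrX:53225197-53225226 reverse and PRMT2 at chr21:46635655-46635684 forward. KMT2B lies at chr19:35717996-35718025 forward, PRMT1 at chr19:49677258-49677287 forward, PRMT5 at chr14:22929355-22929384 reverse and KDM2A at chr11:67119264-67119293 forward. All of these windows span or adjoin the annotated first base of a transcript.

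Most histone methylation enzyme genes were called at their start. A promoter call was found in 37 of 55 members, 67.3% (interval 54.1% to 78.2%), beside 41.6% of all 19974 protein-coding genes. The outer start is not always the start in use, and 7 further members had a call on their own strand within 500 bp of another transcript start listed by RefSeq. With these, 44 of 55 members were called at the outer or a listed start, 80% (67.6% to 88.4%), beside 45.5% of all protein-coding genes. Any call on either strand, inside a gene or at most 500 bp outside it, was present in 49 of 55 members, 89.1%, beside 53.7% of all genes.

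Writers and erasers were not separated by the share of genes called, and the interval of their difference was wide. The promoter call was present in 23 of 33 writers, 69.7% (52.7% to 82.6%), and in 12 of 19 erasers, 63.2% (41.0% to 80.9%). The difference was 6.54 percentage points (-18.0 to 32.2). With all listed starts the counts were 27 of 33 and 15 of 19, and the difference was 2.87 points (-17.6 to 27.1). Among writers, 17 of 25 lysine and 6 of 8 arginine methyltransferase genes were called at the outer start. This was 1 of 12 measures on which writers and erasers were compared.

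**Figure D1:**
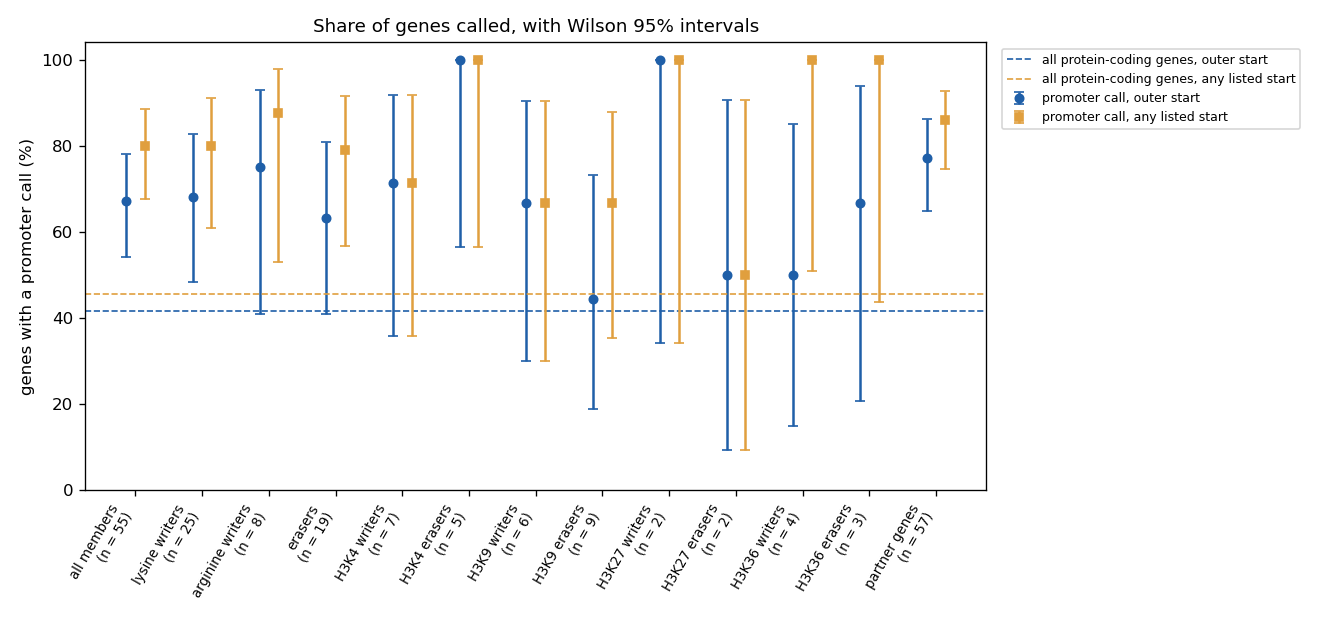
Share of genes with a promoter call (y axis, percent) by group (x axis, with the number of genes); circles use the outer annotated start and squares the outer or any listed start, bars are Wilson 95% intervals and dashed lines the shares over all protein-coding genes. Members as a whole sit at 67.3% and 80%, above the dashed lines at 41.6% and 45.5%, while the intervals of the small mark groups overlap one another.

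Of the genes that write H3K4 methylation, 5 of 7 were called. KMT2A and KMT2B, the MLL-type enzymes of promoters, were called 4 bp and 12 bp downstream of their starts, at 118436496 on chromosome 11 and 35718015 on chromosome 19. KMT2C, which marks enhancers, was called at 27 bp, and SETD1A, which provides much of the promoter mark, at 25 bp. SETD7, a monomethyltransferase with many non-histone substrates, was called 1 bp upstream of its start. KMT2D, the relative of KMT2C, carried no call on its own strand near its start. The call nearest to it lay on the other strand, 82 bp upstream, so the divergent position was called and the gene's own start was not.

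All 5 analysed erasers of H3K4 were called. KDM1A was called at 25 bp and its relative KDM1B at 76 bp. The JmjC erasers KDM5A, KDM5B and KDM5C were called at 35, -1 and 0 bp, where a negative value lies upstream. KMT2E, a relative of the H3K4 writers, was called at -1 bp, and calls on both strands continued upstream to -1386 bp within the 1500 bp that were mapped.

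The H3K9 group held called and uncalled genes among both writers and erasers. Among its writers, EHMT1, EHMT2, SUV39H2 and SETDB2 were called, with offsets of -1, -2, 9 and 196 bp, whereas SUV39H1 and SETDB1 had no call on either strand, inside the gene or up to 500 bp beyond its ends. SUV39H1 and SUV39H2 both build the trimethylated H3K9 of heterochromatin, and SETDB1 sets the same mark with TRIM28 at silenced repeats. Among its erasers, KDM4A, KDM4B, KDM4D and KDM7A were called at 0, 1, -12 and 42 bp. KDM3A and KDM4C were called only at inner listed starts, which raised the erasers from 4 of 9 to 6 of 9, and KDM3B, KDM4E and KDM4F were not called.

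Both writers of H3K27 methylation were called, and 1 of its 2 erasers. EZH1 and EZH2, the alternative catalytic subunits of Polycomb repressive complex 2, were each called 1 bp downstream of the start, EZH2 at 148884290 on chromosome 7 and EZH1 at 42745039 on chromosome 17. The eraser KDM6A, an X-linked gene, was called at 0 bp. KDM6B, the second eraser of this mark, had 4 calls on its own strand inside the gene, at 1592, 2237, 8131 and 9516 bp from the outer start, and none of them lay within 500 bp of a listed start.

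The H3K36 group depended on the choice of start. NSD2 was called at -18 bp and NSD3 at 8 bp from the outer start, while the calls of NSD1 and SETD2 lay 1991 and 746 bp inside and matched inner listed starts at 16 and 19 bp. All 4 writers were thus called at the outer or a listed start, against 2 of 4 at the outer start alone, and NSD3 had no listed start. NSD1, NSD2 and NSD3 set the dimethyl mark and SETD2 the trimethyl mark. Of the genes grouped here as H3K36 erasers, KDM2A and KDM8 were called at 20 and 0 bp. KDM2B was called at 0 bp from an inner listed start 2033 bp from its outer end.

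Of the 8 arginine methyltransferase genes, 7 were called at a listed start. PRMT5, the main enzyme of symmetric dimethylation, was called at 11 bp, and PRMT1, the main enzyme of asymmetric dimethylation, at 6 bp from its inner listed start. PRMT2, PRMT3, PRMT6, PRMT7 and PRMT9 were called at 0, -1, 15, 37 and 25 bp. PRMT8, a membrane-bound enzyme known from neurons, was the exception, with no call in its 213 kb or near it. SETD4, SETD5, SETD6 and SETD9 were called at 2, 5, 16 and 32 bp from the nearest listed start. SETD3, an actin histidine methyltransferase, had only 2 calls, both on the other strand.

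In all, 11 members had no promoter call at the outer or any listed start: KMT2D, SETD1B, SETD3, SETDB1, SUV39H1, PRMT8, KDM3B, KDM4E, KDM4F, KDM6B and EZHIP. Of these, SETDB1, SUV39H1, PRMT8, KDM4E, KDM4F and EZHIP had no call at all between 500 bp before and 500 bp past the gene. The number of reads behind a call is unknown, so a gene without a call cannot be read as a gene without transcription. SETD1B, KDM4E and NSD3 had no entry in the RefSeq promoter table used for strand, and for these a forward call near the left end or a reverse call near the right end was counted.

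**Figure D2:**
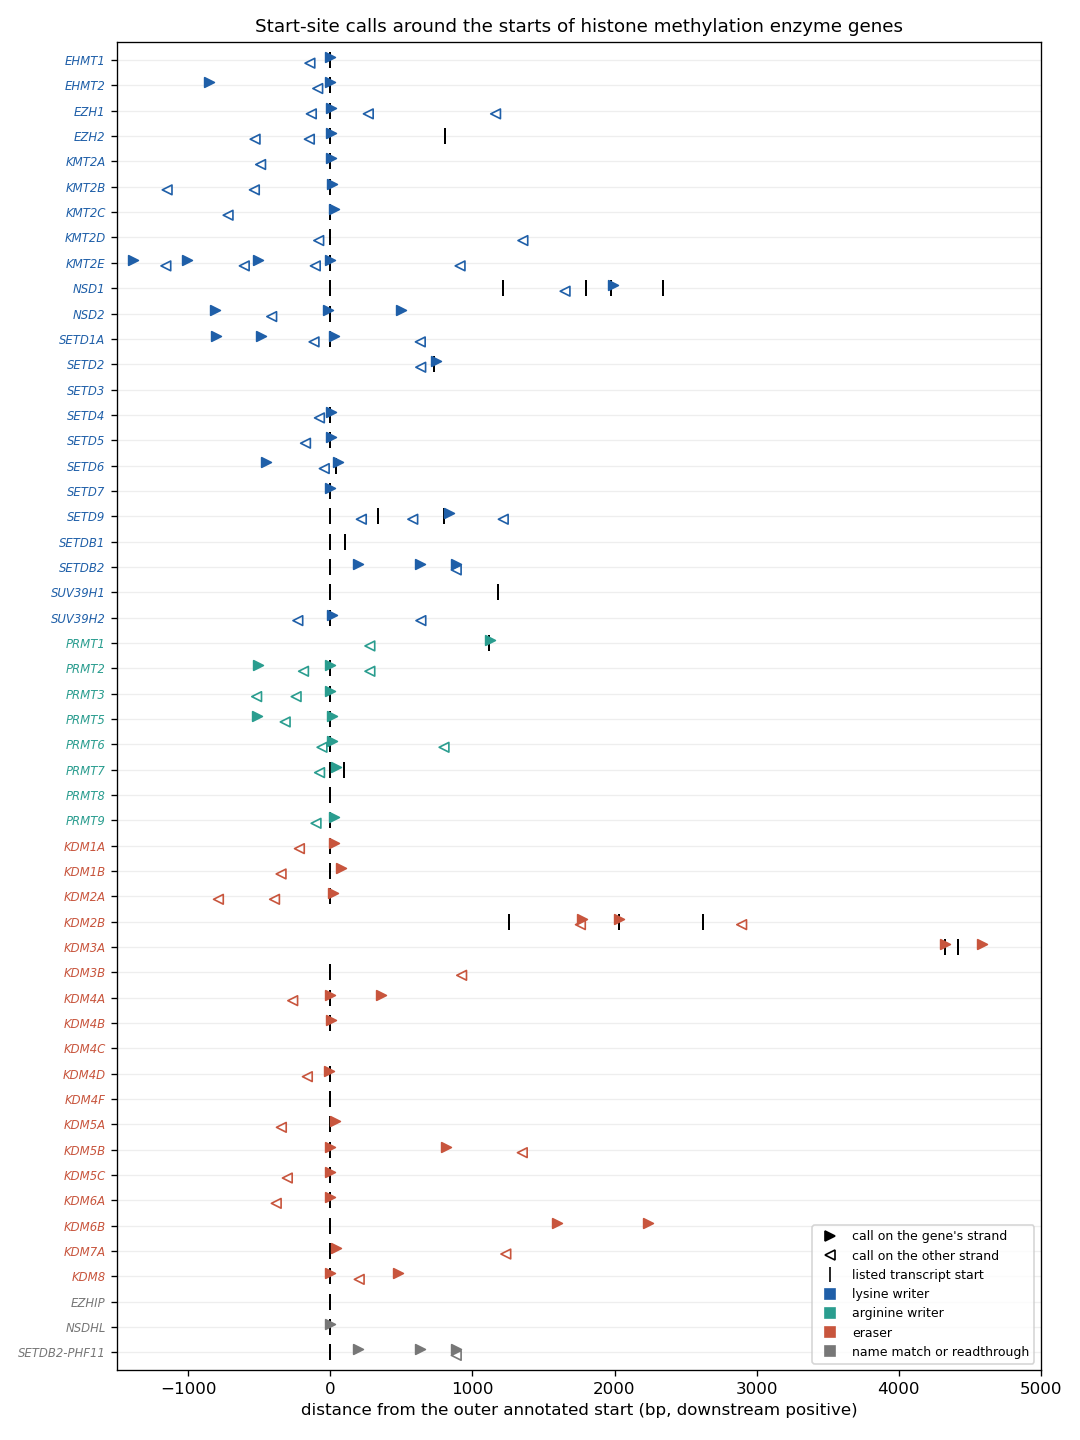
Position of every call from 1500 bp upstream to 5000 bp downstream of the outer annotated start (x axis, bp) for the 52 members with a known strand (rows); filled triangles are calls on the gene's strand, open triangles calls on the other strand and vertical bars listed transcript starts. Most rows have a filled triangle at 0 and an open one to its left, while the rows of SETDB1, SUV39H1 and PRMT8 hold no triangle; the calls of KDM4C and SETD3 lie beyond the right edge.

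The genes called at an inner start give 7 cases in which the calls and the outer annotation differ. KDM3A, an eraser of mono- and dimethyl H3K9, was called at 86441370 on chromosome 2, 4326 bp inside the outer start and 1 bp upstream of a listed start. The call of SETD2 lay 19 bp past its listed start and that of NSD1 16 bp past. SETD9 and PRMT1 were called 834 and 1124 bp from their outer starts, within 32 and 6 bp of listed starts. KDM4C had its nearest own-strand call 275 bp upstream of its listed start, 36835 bp inside the outer start, the loosest match of the 7.

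KDM2B, whose protein recruits a Polycomb complex to CpG islands through a CXXC domain, was called at 2 separate listed starts. The outer of these was called at 0 bp, 2033 bp from the gene's end, and the inner at -1 bp, 114900 bp from it. Each had a call on the other strand upstream, 273 bp and 271 bp away. At the outer one, KDM2B had a further own-strand call 265 bp upstream of the listed start, 8 bp from that other-strand call. Its relative KDM2A was called at the outer start, at 20 bp, and again 111 bp past a listed start that lies 120751 bp inside the gene. These inner positions are where RefSeq places the start of shorter transcripts of both genes.

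Called starts lay close to the annotated base. The median offset of the nearest call over the 37 called members was 4 bp (quartiles 0 and 25, range -18 to 196), beside 3 bp (quartiles -1 and 27) over all called protein-coding genes. The call lay within 50 bp of the outer start in 21 of 23 called writers and 11 of 12 called erasers, beside 81.2% of all called genes. It lay within 1 bp in 7 of 23 writers and 6 of 12 erasers, beside 31.2% of all called genes, and the difference of -19.6 points (-48.3 to 12.4) did not separate the groups. SETDB2, at 196 bp, was the member farthest from its outer start.

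The base at the call followed its distance from the listed start. At -1 bp, a C stood at the call and an A or G after it in 7 of 7 members, as in the sequences of KMT2E, PRMT3, KDM3A and KDM5B, and in 95.4% of 1467 protein-coding genes with that offset. At 0 bp, a T stood before the call and an A or G at it in 6 of 6 members, as in KDM4A, KDM6A, KDM5C and PRMT2, and in 71.4% of 930 genes. Over all genes a C was at the call in 98.8% of those at -1 bp and in 10% of those at 0 bp. The pattern held on both strands: the pair of C and A or G was present in 95.8% of 706 forward and 95% of 761 reverse genes at -1 bp, and the pair of T and A or G in 70.8% of 497 forward and 72.1% of 433 reverse genes at 0 bp. A pyrimidine before a purine is the textbook core of the human initiator element, in which the purine is the first transcribed base. Since genes were sorted by offset, the A or G is the annotated first base at both offsets and reflects the annotation. What differed between the offsets was whether C or T mostly stood in front of it.

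Over the 33 members whose outer-start call lay in a printed window of the promoter table, the offsets were mixed and the bases less uniform. The called base was C in 39.4% (24.7% to 56.3%) and T in 3.03%, beside 49.4% and 3.80% of 5951 genes. The base before the call was T in 48.5% of members and 46.5% of genes, and the base after it A in 48.5% (32.5% to 64.8%) and 49.7%. The triplet TCA centred on the call was present in KMT2A, KDM2A, KDM5A and NSDHL, 12.1% of members, beside 10.7% of genes.

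A short motif lay directly downstream of several calls. ATGGCGG, part of the binding motif of the factor YY1, was found on the gene's own strand within 20 bases after the call in 6 of 36 members with a window there, 16.7% (7.87% to 31.9%), beside 3.61% of 6268 genes. In KMT2B, PRMT1, PRMT5 and KDM2A its first base was the fourth after the call, and the call plus 3 bases therefore led straight into it in the sequences shown above. That exact position was found in 4 of 36 members, 11.1%, and in 42 of 6268 genes, 0.670%. KDM5C and SUV39H2 had it 11 and 14 bases after the call. The motif was among those searched in the whole windows, but this search next to the call was added after the sequences had been seen, and a match is a description of the letters and not a binding site.

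Upstream of the promoter call, a call on the other strand was found for most members. Such a divergent call, at most 1000 bp upstream, was present in 29 of 37 called members, 78.4% (62.8% to 88.6%), beside 66.2% of all called protein-coding genes. It was present in 21 of 23 called writers, 91.3%, and in 8 of 12 called erasers, 66.7%, a difference of 24.6 points (-1.98 to 52.9). With listed starts the counts were 25 of 27 and 10 of 15, and the difference was 25.9 points (1.75 to 51.4), beside 66.5% of all genes. The interval thus left out 0 under the second definition of a start and not under the first, without adjustment for the 12 measures compared. The second definition was chosen after the data had been seen, so no difference between the groups is concluded from it. Called members without a divergent call were the writers SETD7 and SETDB2, the erasers KDM4B, KDM5B, KDM7A and KDM8, NSDHL and the readthrough SETDB2-PHF11.

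The distance between both calls had a shorter median in writers, with overlap between the groups. Its median was 149 bp (quartiles 113 and 240) in 21 writers and 342 bp (quartiles 260 and 389) in 8 erasers, beside 176 bp (quartiles 117 and 277) over 5505 genes. With listed starts the medians were 166 and 288 bp in 25 and 10 genes. The groups overlapped, since the erasers ran from 150 bp in KDM4D to 423 bp in KDM1B, and the writers from 74 bp in PRMT6 to 747 bp in KMT2C. Of the H3K4 writers, KMT2A, KMT2B and KMT2C had distances of 495, 547 and 747 bp, above the writers' median, and SETD1A had 140 bp, below it. EZH1 and EZH2, with 135 and 149 bp, lay near the median of the writers.

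**Figure D3:**
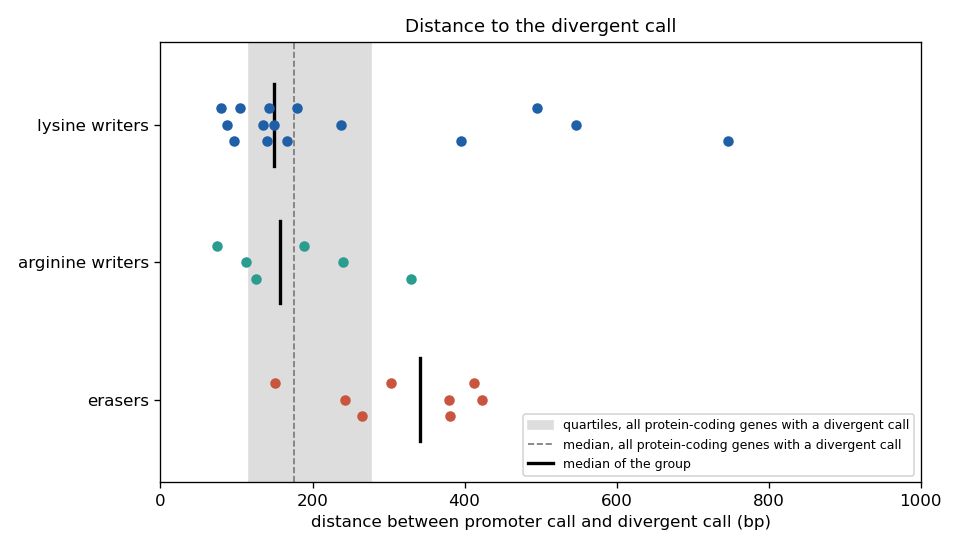
Distance from the promoter call to the nearest divergent call (x axis, bp) for each called member with such a call, by group (rows); black bars are group medians, the dashed line and grey band the median and quartiles over all protein-coding genes with a divergent call. The 8 erasers lie between 150 and 423 bp and most writers below 250 bp, with KMT2A, KMT2B, KMT2C and NSD2 farthest among the writers.

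The stretch between both calls, which separates the outgoing transcripts, is printed for 4 writers. EHMT2, SETD4 and KMT2E had distances below the writers' median, and EZH2 had the median itself. Other writers with distances below the median are not printed. In each line the last capitals mark the 3 bases at the gene's own call and the first capitals the 3 bases at the divergent call, both read on the gene's strand. EHMT2, SETD4, KMT2E and EZH2 encode a writer of H3K9, a SET-domain protein, a relative of the H3K4 writers and the Polycomb writer.
EHMT2: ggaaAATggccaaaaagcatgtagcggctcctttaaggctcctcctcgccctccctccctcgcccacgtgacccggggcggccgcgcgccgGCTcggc
SETD4: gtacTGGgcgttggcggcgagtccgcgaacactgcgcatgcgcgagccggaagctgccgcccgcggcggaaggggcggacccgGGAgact
KMT2E: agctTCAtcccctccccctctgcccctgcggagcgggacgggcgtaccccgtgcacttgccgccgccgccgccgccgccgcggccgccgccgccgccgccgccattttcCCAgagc
EZH2: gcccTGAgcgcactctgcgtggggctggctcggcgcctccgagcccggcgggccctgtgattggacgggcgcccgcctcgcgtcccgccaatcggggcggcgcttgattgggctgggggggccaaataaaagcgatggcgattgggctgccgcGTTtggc

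The stretches lie at chr6:31897695-31897792 on the reverse strand for EHMT2, chr21:36060519-36060608 reverse for SETD4, chr7:105014094-105014209 forward for KMT2E and chr7:148884285-148884444 reverse for EZH2. The calls were 87, 79, 105 and 149 bp apart. The EZH2 stretch contains CCAAT, the letters read by NF-Y, and GGGCGG, the letters of a GC box. The EHMT2 and SETD4 stretches also contain a GC box. That of SETD4 further holds CCGGAAG, the core of an ETS motif, and the palindromic motif of NRF1, and SETD4 was the single member with the last of these. On its own strand the divergent call of KMT2E was centred on TGA.

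For 12 of the 29 divergent calls, an annotated gene of the other strand, or one without a listed strand, had its start within 500 bp. For a gene without a listed strand, the end that would be its start on the other strand was used. The same share over all genes with a divergent call is not given here, so these counts cannot be called high or low. Protein-coding partners were found in 6 cases. The divergent call of EHMT2 lay 4 bp from the start of C2, a complement gene, that of KDM1B 2 bp from TPMT, that of PRMT7 3 bp from SLC7A6OS and that of KDM4D 9 bp from CWC15. That of NSD3 lay 2 bp outside the end of LETM2 taken as its start, and that of KDM5A 318 bp past the start of CCDC77. Long non-coding RNA genes were partners in 5 cases, ARRDC1-AS1 for EHMT1, KMT2E-AS1, PRMT5-DT, SETD4-AS1 and SUV39H2-DT, with the call 34, 42, 85, -1 and 22 bp from their starts. The divergent call of PRMT5 lay closer to a tRNA gene, TRR-ACG1-3, at -7 bp from an end taken as its start. KMT2C had the pseudogene FABP5P3, at -172 bp from an end taken as its start, and the other 17 divergent calls matched no annotated start under this rule.

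Calls inside the gene were found in a larger share of members than of all genes, and members were also longer. A call over 500 bp from the outer start and inside the gene was found in 26 of 52 members with a known strand, 50% (36.9% to 63.1%), beside 22.5% of 15812 genes. The median member was 55.4 kb long, beside 24.2 kb over all genes, and held 2 calls, beside 1. Per 10 kb of gene, the mean number of calls inside was 0.270 in members and 0.262 over all genes. With promoter calls and the flanking 500 bp included, the median per 10 kb was higher in members, 0.332 against 0.0963, and the mean lower, 0.855 against 1.27. The share of members with such calls fell with the distance required, and the calls at inner listed starts described above are among them.

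Own-strand calls inside the gene were found in 8 of 18 erasers, 44.4%, and in 6 of 31 writers, 19.4%, beside 15.9% of all genes with a known strand. The difference of writers minus erasers was -25.1 points (-49.2 to 1.02), so the interval included 0. Erasers were also longer, with a median of 68.4 kb beside 46.4 kb in writers, and the part of length was not tested. Per 10 kb, calls inside on either strand had a mean of 0.258 in erasers and 0.283 in writers. The medians were 0.0902 and 0. Other-strand calls inside were found in 8 of 18 erasers and 13 of 31 writers, beside 16.7% of all genes, with a difference of -2.51 points (-29.3 to 23.8). Within 2000 bp downstream of the promoter call, an other-strand call was present in 7 of 23 writers and 3 of 12 erasers, beside 22.5% of all called genes. A second promoter call was present in 3 of 23 writers and 2 of 12 erasers, beside 11.9%.

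Some of these calls lay deep in the gene. KMT2A had an own-strand call 13723 bp from its start, KDM7A at 73535 bp and KDM4C at 211305 bp. Other-strand calls lay at 69074 bp in KMT2C, 71499 bp in PRMT3, 64700 bp in KDM1B and 445364 bp in KDM4C. KDM4B held a divergent pair 122 kb inside the gene, with the other-strand call at 122026 bp and the own-strand call at 122117 bp. None of the transcript starts listed here lay within 500 bp of the deep own-strand calls of KMT2A, KDM7A, KDM4B and KDM4C. The listed starts are incomplete, since the first one of KDM3A lies 4327 bp inside its outer start. These calls, and those inside KDM6B, therefore cannot be called unannotated.

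SETD1B, the paralogue of SETD1A and like it a writer of H3K4 methylation, held more calls than any other member. In its 42.5 kb on chromosome 12, from 121790155 to 121832656, there were 15 calls, 9 forward and 6 reverse, and 25 of 19974 protein-coding genes, 0.125%, held as many or more. They ran from 3519 to 22385 bp from the left end, and 10 of the 15 lay between 10016 and 14511 bp. None was within 500 bp of either end, so SETD1B counted as uncalled although it was the member richest in calls. Its strand and its inner starts were not in the table used here.

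The next members were KDM2B, KDM4C, KDM6B and SETDB2-PHF11 with 6 calls each, a number reached by 556 genes, 2.78%. Their lengths differed widely, from 20.6 kb in KDM6B to 455 kb in KDM4C. KDM6B thus packed 6 calls, 4 of them on its own strand, into a gene with no call at its outer start. In KDM4C, 4 of the 6 calls lay between 36557 and 37004 bp, next to its listed start.

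**Figure D4:**
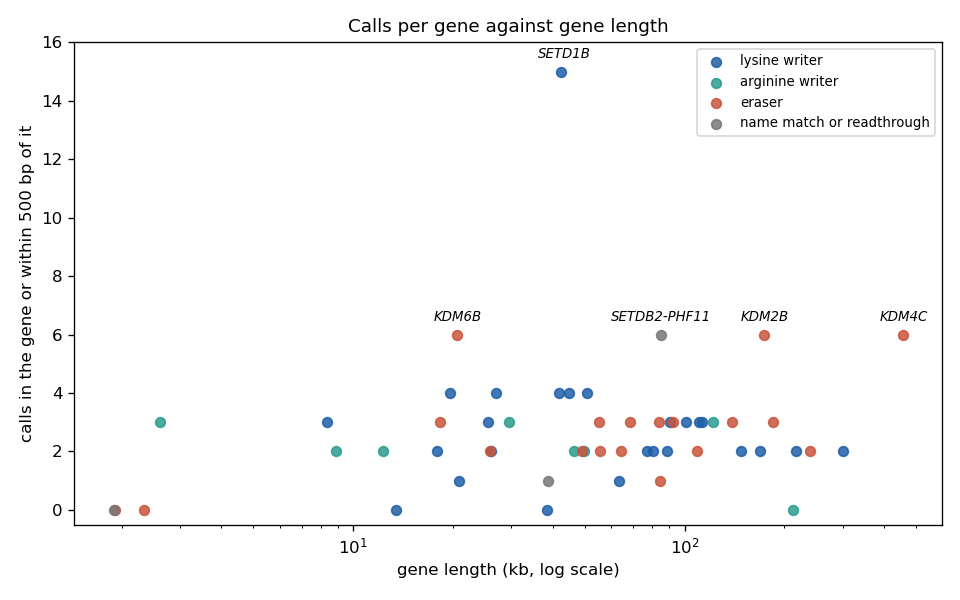
Number of calls per gene, with 500 bp on each side (y axis), against gene length (x axis, kb, log scale) for the 55 members, coloured by role. SETD1B stands at 15 calls, the 4 other named genes at 6, and all the rest at 4 or fewer at any length.

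The promoter windows of members held more CpG than those of all genes, and so did the windows of called genes; the part of CpG density and of gene length in the shares of called genes was not tested. The windows run from 250 bases before to 50 after the listed start closest to the gene's outer end, and their median was 9.67 CpG per 100 bases over 52 members, beside 7.33 over 15812 genes. The 36 members called at the outer start had a median of 11 and the 16 others 7, beside 9 and 4 over called and uncalled genes. Some of the 16 others were called at the listed start of their window. With any listed start counted, the 43 called members had a median of 10 and the 9 others 6. The lowest member called at the outer start had 5.67 CpG per 100 bases. The windows of PRMT8, KDM4F and SUV39H1, which had no call, held 0.333, 0.667 and 2.33, and those of SETD3 and KDM3B, which also had no call at a listed start, held 15 and 10.

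**Figure D5:**
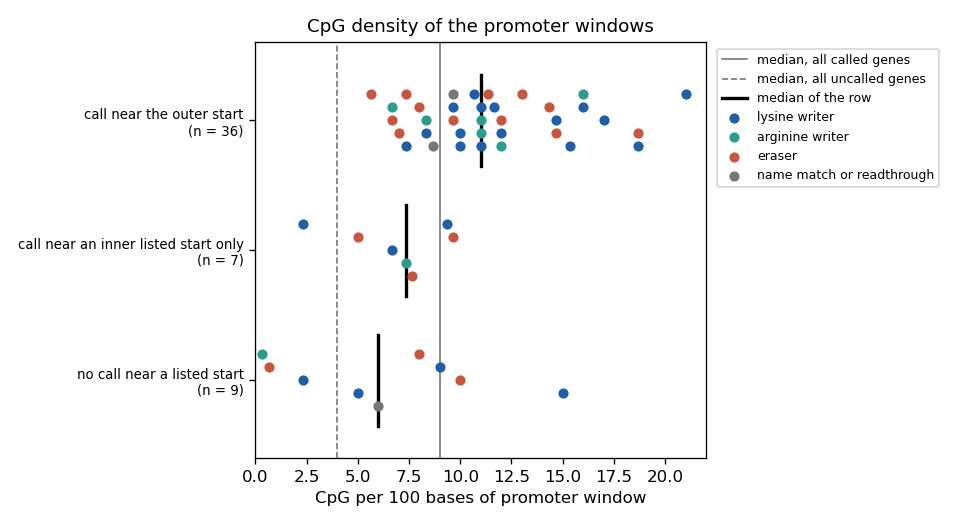
CpG per 100 bases of the 300-base promoter window (x axis) for 52 members, by whether the gene was called at the outer start, at an inner listed start only or at neither (rows); black bars are row medians and grey lines the medians of all called (solid) and uncalled (dashed) protein-coding genes. The called row starts at 5.67 and has its median at 11, and the uncalled row spans 0.333 to 15.

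The start regions of 2 uncalled members, SUV39H1 and PRMT8, are printed for comparison with the called ones, with the annotated first base in capitals. They lie at chrX:48695535-48695564 and chr12:3381330-3381359, both on the forward strand.
SUV39H1: ctaggcagctgtatctggtGatcaactatc
PRMT8: gtctgaattggagagcctgAtttctgcacc

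Motifs were counted on both strands of the windows of 300 bases. TATAAA, the letters of the TATA box, was found in 0 of 52 members (upper bound of the interval 6.88%), beside 9.75% of all promoters and 5.02% of those of called genes. GGGCGG was found in 71.2% of members and 58.3% of all promoters, and ATGGCGG in 15.4% and 7.58%. CCAAT stood at 36.5% and 36.4%, CCGGAAG at 15.4% and 14.1%, and the exact NRF1 motif at 1.92% and 1.77%. Among called members alone, GGGCGG was at 80.6%, ATGGCGG at 19.4% and CCGGAAG at 16.7%, beside 74.1%, 13.2% and 24.7% of called genes.

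Most genes that work with these enzymes were called too. Of 57 partner genes and other methyltransferases and demethylases, 44 had a promoter call, 77.2% (64.8% to 86.2%), beside 41.6% of all protein-coding genes, and 49 had a call at the outer or a listed start, 86.0%, beside 45.5%. Of 12 genes listed as partners of the H3K4 writers, 10 were called, including WDR5, RBBP5, ASH2L and DPY30, the shared core of COMPASS complexes. The other 2, MEN1 and KANSL1, were called at inner listed starts. Of the partners of Polycomb repressive complex 2, 7 of 9 were called, among them EED and SUZ12, the obligate subunits, while AEBP2 and PHF19, both accessory subunits, were not, although PHF19 was called at an inner listed start. Of the H3K9 partners 4 of 6 were called, WIZ and CBX1 being the exceptions, of which WIZ was called at an inner listed start.

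Of the partners of PRMT5 and KDM1A, 7 of 8 were called, among them WDR77, the obligate partner of PRMT5, and RCOR1, the CoREST scaffold of KDM1A, and RIOK1 was not. Among the other methyltransferases 11 of 15 were called, and KMT5B, SMYD1, PRDM9 and NTMT1 were not, with NTMT1 called at an inner listed start. SMYD1, known from heart and skeletal muscle, and PRDM9, known from meiosis, had 0 calls inside or within 500 bp of the gene. Among the other demethylases 5 of 7 were called, PHF8 and HR being the exceptions. JMJD1C, a relative of KDM3A, held 8 calls and PHF21A, a subunit of the KDM1A complex, 7, the most of any gene in these lists.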

How the data were processed

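PRO-seq calls of HUDEP-2 cells were analysed from 2 deposited lists, 1 per strand. Per the file headers, the authors made them with TSScall from 1 sorted, de-duplicated alignment whose name matches no sample title. Neither its version nor its read minimum is given in the sources used here. Per the submitters' processing notes, the build was hg38 and BWA (0.7.16a), SAMtools (1.17), deepTools (3.5.4) and Picard were used. The deposited score was 0 for every call, so depth is unknown. The end of each interval was taken as the call's position. Gene ends, and strand, transcript starts and sequence where listed (52 of 55 members), came from RefSeq tables of GRCh38.p14. The listed starts do not cover every transcript, and for some members, such as KDM3A, the outer start is not among them.

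Shares, Wilson and Newcombe intervals and medians were computed over genes with no test, since the lists cannot be split by library. All members could be named. Of the partner lists, uncalled genes and the up to 5 with the most calls per list could be named, and other partners named were chosen after their values were seen. Members and lists were chosen with earlier results of these data known. The scripts were tested on simulated data: of 200 genes with planted calls, 200 were called and 200 offsets recovered. Computation ran in Python 3.11.15 (pandas 2.3.3, numpy 2.4.6, scipy 1.17.1), with figures in matplotlib 3.10.9.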

Additional observations from a re-analysis of the deposited data

How the results depend on the processing

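Of 38 alternatives, 31 moved the value by less than its interval and 7 by more. The share of members called rose from 67.3% to 80% with any listed start, an alternative chosen after seeing the data, and to 89.1% when any call in the gene or within 500 bp counted, which raised the partner genes from 77.2% to 94.7%. Both rules admit more calls by construction. The share of members with a call inside the gene was 36.5% over 1000 bp and 25% over 2000 bp from the start, where fewer calls qualify. The share of A after the call was 30.3% with the position moved 1 base to the left and 30.3% with it moved to the right, since another base is then read. Using all promoter calls for the bases gave the same 33 calls and so was no further check. The difference between writers and erasers in promoter calls ran from 1.44 to 12.6 points under its alternatives, each interval including 0. No replicate could be left out and no depth is known. No paired analysis was possible because the lists have no column per library.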
